A study of Rattus norvegicus with 6 samples.

Results

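miR-221 and miR-222 are a pair of microRNAs from neighbouring hairpins on the X chromosome, and they are described here in rat lung after ischemia reperfusion (IR). The members were taken by name, as every row of the deposited table called miR-221 or miR-222. This gave 4 of the 693 listed miRNAs, which are both arms of each hairpin: rno-miR-221-3p, rno-miR-221-5p, rno-miR-222-3p and rno-miR-222-5p. The rule used names and no measured value, although earlier results of these data were known when the members were chosen. Small RNA was sequenced from the lungs of 3 IR and 3 sham Sprague-Dawley rats, males aged 7 to 8 weeks. In IR rats the left hilum was clamped for 45 min under ventilation and blood flow was then restored, and in sham rats the chest was opened without clamping. The libraries of a group are called biological replicates in the study, while neither the labels nor the methods give the time of reperfusion or the piece of lung used. Unsorted lung tissue was used, so that fewer cells of a type and less RNA per cell cannot be told apart.

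A miRNA gene is transcribed as a long precursor, from which a hairpin is cut, and each of the hairpin's arms can give a mature miRNA of its own. The mature strand finds its target mRNAs mainly through its seed, bases 2 to 8 from its 5′ end. miR-221 and miR-222 are known in blood vessels, where they are expressed in endothelium and in smooth muscle. In endothelial cells they repress Kit, the receptor of stem cell factor, and restrain tube formation, and in vascular smooth muscle they repress the cell cycle inhibitor p27 (Cdkn1b) and promote growth.

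The mature sequences are shown first because they decide which members can act on the same targets and which can be told apart by their reads. All 4 members matched a mature miRNA of RefSeq (rat build GRCr8), and the seed is in capitals:
rno-miR-221-3p: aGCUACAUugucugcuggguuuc
rno-miR-222-3p: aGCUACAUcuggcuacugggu
rno-miR-221-5p: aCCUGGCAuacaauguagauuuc
rno-miR-222-5p: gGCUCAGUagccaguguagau

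The 3p strands share their first 8 bases, and with them the whole seed GCUACAU. Of the 693 mature names in the RefSeq table, these 2 alone carry it. Beyond base 8 the 3p strands part, and 11 of 21 bases are identical when they are aligned from the 5′ end. The 5p strands have seeds that no other name in the table shares, CCUGGCA for miR-221-5p and GCUCAGU for miR-222-5p. The 5p strands thus share neither a seed with each other nor one with the 3p strands.

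The hairpins that carry these strands are given below with the mature arms in capitals, because the report turns on how the reads divide between the arms. Mir222 lies at chrX:6022621-6022723 and Mir221 at chrX:6023182-6023290, both on the plus strand of GRCr8 (for the genome build behind the counts, the sources used here give no name):
Mir221: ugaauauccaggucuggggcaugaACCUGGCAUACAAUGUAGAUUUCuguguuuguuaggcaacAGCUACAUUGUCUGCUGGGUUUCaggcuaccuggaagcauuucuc
Mir222: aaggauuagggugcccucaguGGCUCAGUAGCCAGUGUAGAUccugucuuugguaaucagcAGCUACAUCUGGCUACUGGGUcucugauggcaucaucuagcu

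Mir222 comes first along the strand and Mir221 follows after 458 bases, so that both fit within 670 bases. The arms are separated by 17 bases in Mir221 and 19 bases in Mir222. The interval of both hairpins lies inside the spans of the uncharacterised long non-coding RNA genes LOC120099382 and LOC120099384. The strand of these genes was not compared with that of the hairpins.

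The libraries held 3775663 to 11248166 miRNA reads in IR and 7459979 to 10718899 in sham. IR replicate 2 was the shallowest of the 6, and the part of its depth in the values below was not tested. Levels are given as CPM, counts per 1000000 miRNA reads after trimmed mean of M-values (TMM) normalization, or as the deposited TPM, which divide each count by the library's total only. A read covers a whole mature miRNA, so neither is divided by length. Abundant miRNAs of endothelium and smooth muscle were read in the same libraries, which does not test the label lung. The endothelial miR-126a arms summed to 83153 to 105378 CPM in IR and 88065 to 111213 in sham, and the smooth muscle arms of miR-143 and miR-145 to 141102 to 161055 CPM in IR and 133739 to 163108 in sham.

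All 4 members together took 0.0796% to 0.107% of the reads of an IR library and 0.0832% to 0.0971% of a sham library. The order of the mean levels was not the same in the 2 groups. In IR lungs miR-222-3p averaged 395 ± 133 CPM and miR-221-3p 394 ± 30.7, followed by miR-221-5p at 131 ± 39.2 and miR-222-5p at 2.53 ± 0.303 (SD, n = 3). In sham lungs miR-221-3p stood first at 461 ± 52.2 CPM, ahead of miR-222-3p at 334 ± 45.5, miR-221-5p at 94.1 ± 2.02 and miR-222-5p at 2.59 ± 0.408 (SD, n = 3). The 3p strands did not differ beyond their spread in IR. In sham, miR-221-3p had more reads than miR-222-3p in all 3 libraries. In IR it had more in replicates 1 and 3 and fewer in replicate 2. By abundance miR-221-3p ranked 107th to 110th in IR libraries and 99th to 104th in sham libraries among the 693 miRNAs, and miR-222-5p ranked between 346th and 372nd over all 6.

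**Figure D1:**
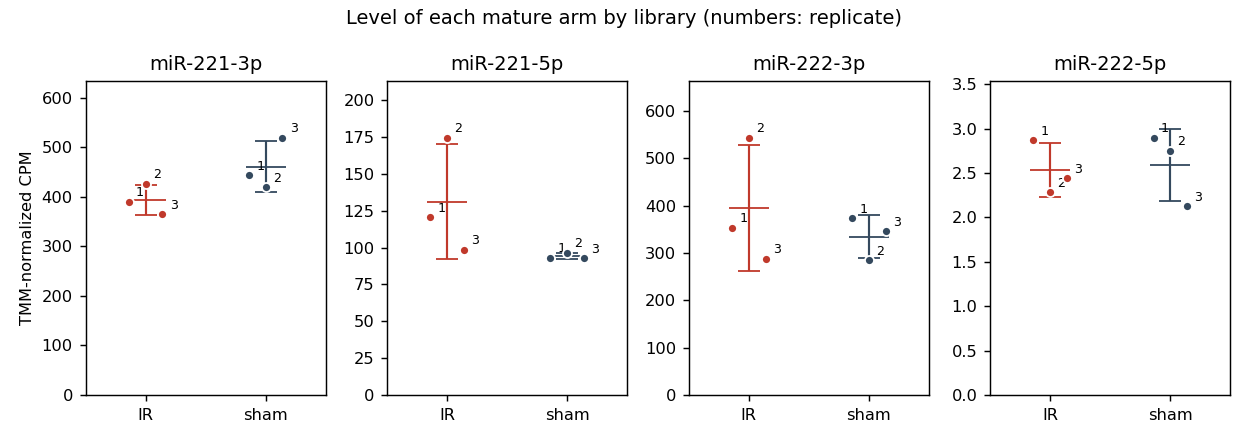
TMM-normalized CPM (vertical axis, a scale of its own in each panel, starting at 0) of the 4 mature arms in the 3 IR and 3 sham libraries. Points are libraries numbered by replicate, and bars show the mean and SD. IR replicate 2 has the highest point for miR-222-3p (543.6 CPM) and miR-221-5p (174.7 CPM), while the sham points of miR-221-5p lie within 92.7 to 96.5 CPM.

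The question of the comparison was which miRNAs differ after IR, and of these members none passed. edgeR's quasi-likelihood test called 0 of the 4 members at an adjusted p under 0.05, where 44 of all 418 tested miRNAs (10.5%) were called. At an unadjusted p under 0.05 it found 0 of 4 members, beside 110 of 418 (26.3%), and DESeq2 and limma called 0 members too. All 4 members had enough reads for the test.

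miR-221-3p, the main strand of its hairpin, had 2584, 1496 and 4336 reads in IR replicates 1 to 3, against 3522, 4731 and 4638 in sham replicates 1 to 3. These were 390, 426 and 365 CPM in IR, against 444, 419 and 520 CPM in sham. IR replicate 2 lay above sham replicate 2, so the groups overlapped on this scale. In the deposited TPM they did not overlap, with 410, 396 and 385 in IR, against 472, 441 and 450 in sham. The 2 scales differ most in sham replicate 3, whose TMM factor was 0.867, against 0.929 to 1.06 in the other libraries. The log2 fold change was -0.23 (95% interval -0.56 to 0.11, adjusted p = 0.338 from edgeR), and -0.19 with library totals in place of TMM (adjusted p = 0.457 from edgeR). A small fall and no change cannot be separated with 3 libraries a group.

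miR-221-5p comes from the other arm of the same hairpin and is the less abundant strand. It was found at 121, 175 and 98.6 CPM in IR, against 93.2, 96.5 and 92.7 CPM in sham. All IR libraries lay above all sham libraries, although IR replicate 3 lay close to them, and the sham libraries were nearly equal. The log2 fold change was 0.48 (95% interval -0.05 to 1.00, adjusted p = 0.232 from edgeR). Much of its size rested on IR replicate 2, without which it was 0.21 (adjusted p = 0.510 from edgeR).

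miR-222-3p shares the seed of miR-221-3p. It had 353, 544 and 288 CPM in IR, against 373, 284 and 346 CPM in sham. IR replicate 2 was the highest library and the other IR libraries lay within the sham range. The log2 fold change was 0.24 (95% interval -0.32 to 0.80, adjusted p = 0.570 from edgeR), and it turned to -0.07 without IR replicate 2 (adjusted p = 0.845 from edgeR).

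miR-222-5p was scarce, with 19, 8 and 29 reads in IR and 23, 31 and 19 reads in sham. Its levels were 2.87, 2.28 and 2.44 CPM in IR, against 2.90, 2.75 and 2.13 CPM in sham. The groups overlapped, and the log2 fold change was -0.03 with the widest interval of the 4 members (95% interval -0.74 to 0.68, adjusted p = 0.986 from edgeR). No difference was detected with these low read numbers, and the part of depth in this was not tested.

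Over the members, 1 of 4 had IR and sham libraries that did not overlap in CPM (miR-221-5p), beside 34.0% of the tested miRNAs. In TPM there were 2 of 4 (miR-221-3p below sham and miR-221-5p above it), beside 30.1%. The fold changes of the members lay well inside those of the tested miRNAs, which ran from -2.33 to 3.89 on the log2 scale with a median of -0.01.

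**Figure D2:**
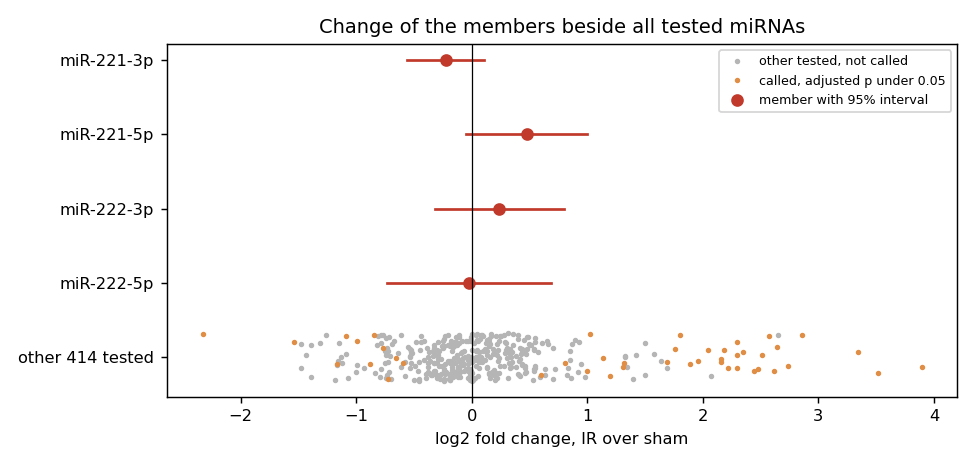
Log2 fold change of IR over sham (horizontal axis) for the 4 members, as points with the 95% interval of edgeR's quasi-likelihood fit (n = 3 libraries per group), above the other tested miRNAs, 1 dot each. All 4 intervals include 0, and the members lie between -0.23 and 0.48.

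Because the 3p strands share a seed, their summed level measures that seed. It was 743, 970 and 653 CPM in IR, against 817, 704 and 865 CPM in sham. The groups overlapped over most of their range, and the means were 789 ± 163 CPM in IR and 795 ± 83.0 CPM in sham (SD, n = 3 each). The difference of the mean log2 values was -0.03 (exact permutation test, two-sided, p = 1.0, over 20 divisions of the 6 libraries, where the smallest possible p is 0.1). Its sign was not stable, being 0.0030 with library totals.

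The share of each 3p strand within the seed is a ratio of reads in 1 library and needs no scaling. miR-222-3p had 0.906, 1.27 and 0.787 reads per read of miR-221-3p in IR, against 0.840, 0.677 and 0.666 in sham. IR replicate 3 lay below sham replicate 1, and the other IR libraries lay above all sham libraries. IR replicate 2 was the single library in which miR-222-3p exceeded miR-221-3p. The mean log2 ratio was -0.05 ± 0.36 in IR and -0.47 ± 0.19 in sham (SD, n = 3 each), a difference of 0.42 that did not pass (exact permutation test, two-sided, p = 0.2, where the smallest possible is 0.1). Without IR replicate 2 the difference was 0.22.

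The arm ratio of miR-221 sets the strands of 1 hairpin against each other within a library, where scaling cancels. Per read of miR-221-5p there were 3.23, 2.44 and 3.71 reads of miR-221-3p in IR, against 4.76, 4.35 and 5.60 in sham. The 3p strand was the more abundant in every library, and every IR ratio lay below every sham ratio. The mean was 3.13 ± 0.640 in IR and 4.90 ± 0.639 in sham (SD, n = 3 each). On the log2 scale the difference was -0.66 (95% interval -1.21 to -0.11), with an unadjusted p = 0.0246 and an adjusted p = 0.476 from limma over the 112 hairpins whose arms each averaged at least 10 reads. It therefore did not pass. limma called 0 of the 112 hairpins (0%), and 11 had an unadjusted p under 0.05. miR-221 was 5th in order of p and 11th in order of the size of the difference. Taken alone, its ratios gave p = 0.1 in the exact permutation test (two-sided), the smallest that 3 against 3 libraries allow. Of the hairpins of these members, 1 of 2 had groups that did not overlap, beside 16.1% of all hairpins tested. The difference was -0.49 without IR replicate 2.

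miR-222 was divided far more unequally. There were 123, 238 and 118 reads of miR-222-3p per read of miR-222-5p in IR, against 129, 103 and 162 in sham. The groups overlapped. The difference on the log2 scale was 0.21 (95% interval -0.54 to 0.96, adjusted p = 0.848 from limma). In IR replicate 2, which had the highest ratio, miR-222-3p had its highest level of the 6 libraries at 544 CPM and miR-222-5p had 8 reads. Without that library the difference was -0.10.

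For scale, the hairpins were ordered by their mean log2 ratio of 3p to 5p reads over the 6 libraries. miR-221 stood 81st of 112 at 1.95, between miR-223 of myeloid cells at 1.79 and miR-361 at 1.99, and miR-222 stood 104th at 7.09, between miR-652 at 6.85 and miR-200b of epithelium at 7.11. None of these neighbours passed. The IR minus sham difference was -0.18 for miR-223 (adjusted p = 0.848 from limma) and 0.86 for miR-361 (adjusted p = 0.476 from limma), whose IR libraries lay above all sham libraries. It was -0.67 for miR-652 (adjusted p = 0.705 from limma) and 0.24 for miR-200b (adjusted p = 0.787 from limma), whose groups overlapped.

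**Figure D3:**
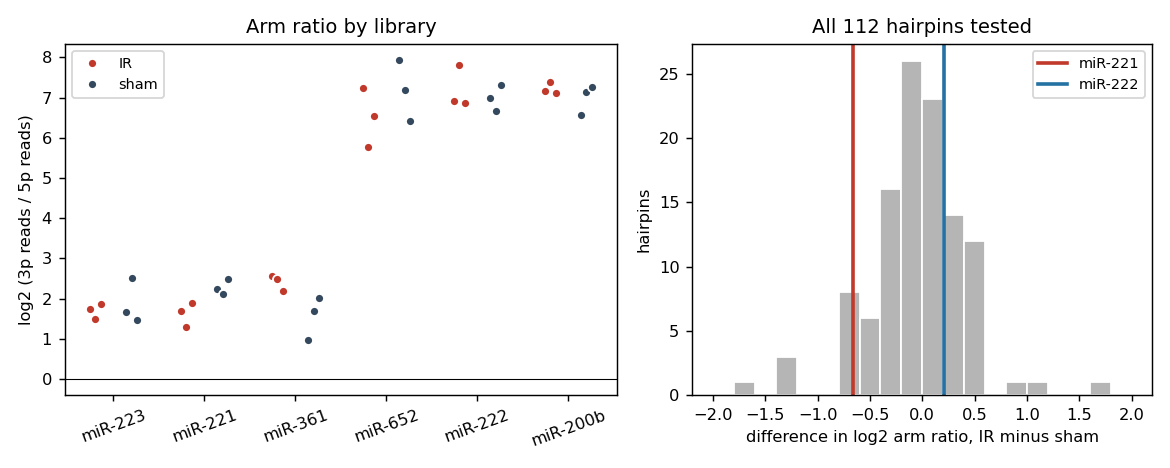
Left, log2 ratio of 3p to 5p reads (vertical axis) in each IR and sham library for miR-221, miR-222 and the hairpins next to each in mean ratio. Right, the number of hairpins (vertical axis) by the IR minus sham difference of that ratio (horizontal axis), with miR-221 at -0.66 and miR-222 at 0.21 marked by lines. The 3 IR points of miR-221 lie below its 3 sham points.

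Likeness between miRNAs was measured by the SD of the log2 ratio of reads over the 6 libraries, where 0 means a fixed proportion. Candidates were the miRNAs averaging at least 100 reads. For miR-221-3p the SD against miR-222-3p was 0.34, the 149th smallest of 272 candidates and near their median of 0.33, and against its own 5p arm it was 0.43, the 194th. The closest to miR-221-3p were let-7f-5p (0.0546), miR-3596d (0.0557) and let-7a-5p (0.0630). let-7f-5p and let-7a-5p belong to the let-7 family, abundant miRNAs of differentiated cells.

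miR-221-5p and miR-222-3p varied more closely with each other than with miR-221-3p. The SD of their log2 ratio was 0.20, which placed miR-222-3p 7th of 272 for miR-221-5p, and miR-221-5p 13th of 272 for miR-222-3p. Nearest to miR-221-5p were miR-3068-5p (0.13), miR-30d-5p (0.14) and miR-30a-5p (0.17), the last pair from the abundant miR-30 family. Nearest to miR-222-3p were miR-103-3p (0.14), miR-19b-3p of the miR-17-92 cluster (0.15) and miR-30e-5p (0.15). miR-221-5p and miR-222-3p stood 0.67 and 0.61 above their own 6-library means on the log2 scale in IR replicate 2, where miR-221-3p stood 0.01 above its mean. Without IR replicate 2, the share of candidates closer to miR-221-3p than miR-222-3p fell to 22.9%, against 54.6% with all libraries. The values of miR-222-5p, whose nearest were miR-1843a-3p (0.0795), miR-100-5p (0.12) and let-7e-5p (0.14), rest on 8 to 31 reads a library. These orders are descriptions over 6 libraries and carry no test.

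**Figure D4:**
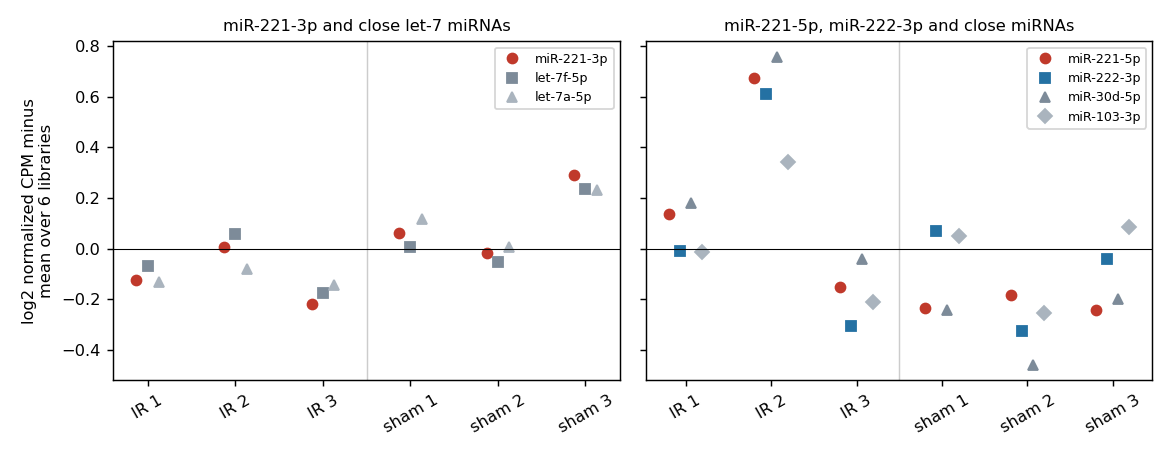
Log2 normalized CPM minus the mean over the 6 libraries (vertical axis) by library (horizontal axis), for miR-221-3p with the close let-7f-5p and let-7a-5p on the left, and for miR-221-5p and miR-222-3p with the close miR-30d-5p and miR-103-3p on the right. In IR replicate 2 miR-221-5p and miR-222-3p lie at 0.67 and 0.61, and miR-221-3p at 0.01.

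The other vascular miRNAs were read from a list of 28, chosen like the members with earlier results of these data known. Of its 27 tested miRNAs, 0 were higher, 2 were lower and 25 did not pass edgeR's quasi-likelihood test, beside 33 higher (7.89%) and 11 lower (2.63%) of all 418 tested. The called share of the list, 7.41%, was near the 10.5% over all tested miRNAs, and its groups did not overlap in CPM for 6 of 27, beside 34.0%. Its median log2 fold change was -0.03, beside -0.01 over all tested miRNAs. The lower ones were miR-92a-3p, which restrains vessel growth, and miR-23a-3p. miR-92a-3p had 699, 733 and 695 CPM in IR, against 1276, 1030 and 1212 CPM in sham (log2 fold change -0.73, adjusted p = 0.0203 from edgeR). miR-23a-3p had 2956, 3976 and 3822 CPM in IR, against 5802, 5690 and 4741 CPM in sham (log2 fold change -0.59, adjusted p = 0.0494 from edgeR). In both, all IR libraries lay below all sham libraries. miR-23a-3p passed narrowly, and miR-23b-3p of the same list fell just short (log2 fold change -0.70, adjusted p = 0.0523 from edgeR).

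Among the markers of cell types, both endothelial arms of miR-126a and all 4 smooth muscle arms did not pass, with medians of -0.02 and -0.12 on the log2 scale. Some lists of other cells were separated between the groups in their summed CPM, and 3 of the 29 tested markers passed (10.3%, beside 10.5% of all tested miRNAs). For 9 of the 29 the groups did not overlap in CPM, beside 34.0%. Those called were miR-199a-3p and miR-150-5p, lower, and miR-1-3p, higher, which are named after their values were seen. The epithelial list of 5, with the miR-200 family, summed to 18672 to 19222 in IR and 12889 to 15882 in sham, with 0 called. The fibroblast list had 3 of 4 miRNAs tested, which summed to 2332 to 2485 in IR and 3224 to 3686 in sham, with 1 called lower. The 4 myeloid and leukocyte arms summed to 1315 to 1645 in IR and 1812 to 3046 in sham, with 0 called. The 2 lymphocyte miRNAs summed to 960 to 1145 in IR and 1678 to 1743 in sham, with 1 called lower. The erythroid list of 4 summed to 1493 to 2155 in IR and 1233 to 4048 in sham, and the striated muscle list of 5 to 146 to 198 in IR and 139 to 173 in sham, so that these overlapped, with 0 erythroid and 1 muscle miRNA called higher. The part of these lists in the values of the members was not tested.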

How the data were processed

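Small RNA libraries were made from the lungs of 3 IR and 3 sham rats, 1 library each. The authors deposited whole read counts per miRNA and, beside them, TPM, which are the counts scaled by the sum of the column. The submitters' processing notes name Bowtie. For the build, the annotation, how reads were counted and what was done with those matching several miRNAs, the sources used here give nothing. Groups were taken from the sample titles, which read IR and NC. A figure caption of the study gives NC as sham-operated, although its conclusions call the comparison tissue untreated.

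The members, lists and tests were chosen with earlier results of these data known. The rule for named miRNAs took the members, the 3 miRNAs nearest to each, called vascular miRNAs and the hairpins next to miR-221 in arm ratio. The hairpins next to miR-222 were named outside this rule. miR-222-5p met the rule for members once the table was read. Its alternatives, those of its hairpin and the counts of called members and hairpins were added after seeing the data.

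Counts were filtered with filterByExpr (minimum count 10, minimum total 15), scaled by TMM and tested with edgeR 4.0.16 (quasi-likelihood, R 4.3.3), with Benjamini-Hochberg adjustment. Intervals use the standard error and degrees of freedom of that fit. Arm ratios, with 0.5 added to each count, were tested with limma 3.58.1 over 112 hairpins. Single ratios and sums were tested by exact permutation over libraries. DESeq2 1.42.0, limma, other scalings and filters, a replicate block and leaving out each library were tried. Scripts were tested on simulated counts. The sources used here mention no molecular identifiers, and the precision of a count alone covers counting error only. The intervals of the edgeR fit also take in the spread between the libraries of a group. At the depths of the libraries 3 reads correspond to 0.267 to 0.795 TPM. Columns without a sample numbered 0.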

Additional observations from a re-analysis of the deposited data

How the results depend on the processing

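The members stayed at 0 called in all 18 other settings, although miR-222-5p was filtered out where 10 reads were required in every library. miR-221-3p stayed below sham and miR-221-5p above it in every setting, at -0.30 to -0.13 and 0.21 to 0.69 on the log2 scale with 1 library left out, and so did the miR-221 arm ratio at -0.80 to -0.49. miR-221-5p reached an unadjusted p under 0.05 in 2 of 12 settings with all libraries and in 1 of 6 with a library left out. The number of miRNAs called, 44, became 26 with 10 reads required in every library, 75 with DESeq2 and 0 with the replicate number as a replicate block, and ran from 2 to 57 with 1 library left out. The main fit had no block because the methods of the study name none for the sequencing. For comparisons of 2 groups in general they name a paired t-test, while the figure captions that name a t-test call it unpaired. Whether animals of the same number were paired is not stated. Libraries of the same number did not deviate together (r = -0.27, -0.39 and -0.16 for numbers 1, 2 and 3), a weak check with 3 libraries a group. Other values changed sign. miR-222-5p was at 0.0040 with library totals and -0.18 to 0.054 with 1 library left out. The sum of the 3p strands was at 0.0030 with library totals, 0.030 with all members summed and -0.19 to 0.10 with 1 library left out. With 1 library left out miR-222-3p ran from -0.070 to 0.46, the miR-222 arm ratio from -0.10 to 0.37, the number of hairpins called from 0 to 1 (miR-21, without IR replicate 2), and the share of candidates closer to miR-221-3p than miR-222-3p from 22.9% to 66.8%. The miR-222 arm ratio could not be tested with 50 reads required of each arm. The causes were not tested. The widths of the intervals show what 3 libraries a group can resolve, and the values of miR-222-5p rest on 8 to 31 reads a library.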
